A study of Mus musculus with 9 samples.

Results

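The genes described here encode the kinases of the mitogen-activated protein (MAP) kinase cascades, the scaffolds, partners and target kinases that carry a Mapk symbol, and the protein phosphatases that counter them. A gene belonged to the set when its symbol in the platform's probe table began with Map2k, Map3k or Map4k and a digit, with Mapk, with Dusp and a digit, or with Ptpn or Ptpr. This rule used no measured value, but the set was chosen with earlier results of these data known. It gave 57 genes of the 8106 tested, covered by 107 cDNA clones with values. By symbol, 29 of these genes were grouped with the kinase cascades and their partners and targets, and 28 with the phosphatase families. All 57 had values enough to be tested. They were measured in stroma that had been cut by laser capture from the prostates of male, hemizygous CR2-TAg mice of the FVB strain, in which elements of the cryptidin-2 gene drive SV40 large T antigen in neuroendocrine cells of the prostate, so that every mouse of both groups carried the transgene. The stroma came from 6 mice of 24 weeks with invasive cancer and from 3 mice of 10 weeks with prostate intraepithelial neoplasia (PIN, replicates 2, 3 and 4). The study had 4 PIN mice, and the array of the other one was not analysed here. Age and stage cannot be told apart, and invasive stroma was collected over a wider distance from the epithelium than PIN stroma.

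A MAP kinase cascade is a relay of kinases, in which a MAP4K or a small GTPase activates a MAP3K, the MAP3K phosphorylates a MAP2K, and the MAP2K phosphorylates the MAP kinase itself (ERK, JNK or p38) on a threonine and a tyrosine. Dual-specificity phosphatases of the Dusp family remove both phosphates, while protein tyrosine phosphatases of the Ptpn (non-receptor) and Ptpr (receptor) families act on receptors, adaptors and other kinases upstream. In connective tissue these cascades carry the signals of growth factors, inflammatory cytokines, adhesion and mechanical stress. The arrays report mRNA abundance of the components and say nothing of phosphorylation or activity.

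Each sample carried Cy5 and was hybridized together with pooled RNA of the PIN samples carrying Cy3, and its values are log2 ratios to that pool. A value of 0 therefore means the level of the pool, each PIN sample was part of the pool it was compared with, and the dyes were never swapped. The 9 arrays held 17189 to 17206 values each. PIN replicate 4 stood apart from the other PIN arrays (r = 0.177 and 0.189 over all clones), and among the 57 genes it was the PIN array farthest from the rest in 25. The levels of epithelial markers were higher on that array, with a median log2 ratio over 7 markers of 0.82, beside -1.31 and -1.58 on PIN replicates 2 and 3. Over the 6 invasive arrays the same median lay between -1.79 and -0.54. As ratios to a pool, the values cannot show whether a marker of stroma is present. Passing as higher were 4 of 9 fibroblast, 2 of 7 endothelial, 4 of 4 macrophage, 3 of 3 panleukocyte, 1 of 4 neuroendocrine tumor and 5 of 11 proliferation markers, and as lower 2 of 4 smooth muscle and 1 of 7 epithelial markers, while the single lymphocyte and skeletal muscle markers did not pass. Over all 8106 genes, 3.75% passed as higher and 1.89% as lower, by the limit given at the end of this paragraph. Values of a gene were averaged over its clones and compared between the groups with limma, and a gene is said to have passed where the adjusted p fell below 0.15, a limit taken from the study.

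Of the 57 genes, 5 passed, 2 higher and 3 lower in invasive cancer stroma. The kinase Map4k4 and the phosphatase Ptpn2 rose, and the phosphatases Ptprf, Ptprd and Dusp14 fell. That is 8.77% of the set, beside 5.64% of all 8106 genes (3.75% higher and 1.89% lower). At an adjusted p under 0.05 none of the 57 passed in limma, beside 0.938% of all genes, while 10 (17.5%) had an unadjusted p under 0.05, beside 15.0% of all genes. All 6 invasive arrays lay on one side of all 3 PIN arrays in 5 of the 57, or 8.77%, beside 7.85% of all genes; these were Map4k4 and Ptpn2 above and Ptprf, Dusp14 and Ptpn21 below. Differences were spread about 0, with 30 genes above and 27 below, a median of 0.03 (0.02 over all genes) and a median size of 0.23 on the log2 scale (0.23 over all genes). In 42 of the 57 the difference was under 0.3 in size, a count that was not made over all genes. The other shares of the set lie near those of all genes.

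**Figure D1:**
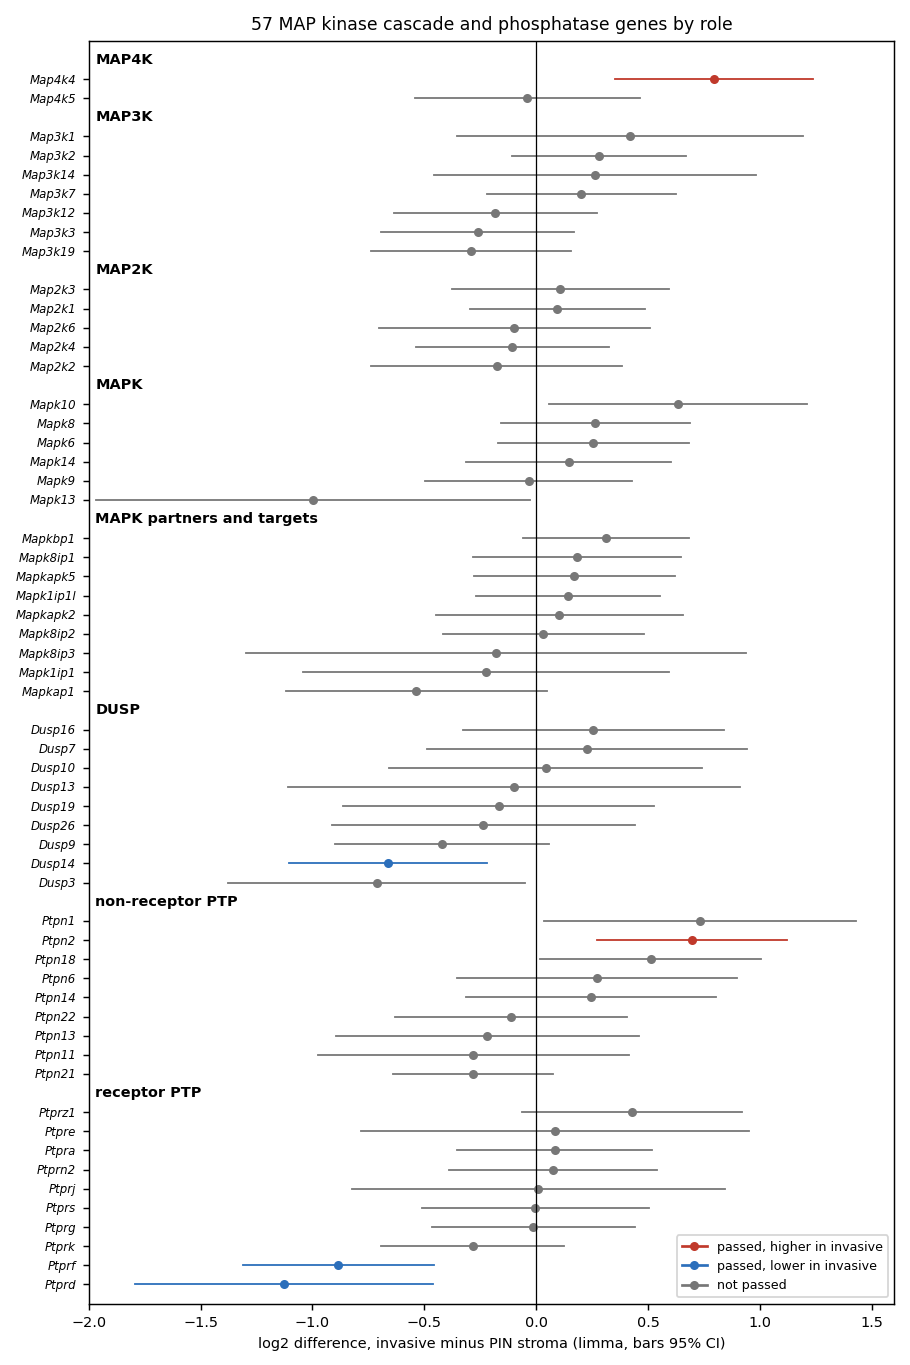
Log2 difference, invasive minus PIN stroma, of the 57 genes grouped by role; points are limma estimates, bars their 95% confidence intervals, red genes passed as higher, blue genes passed as lower and grey genes did not pass. Map4k4 and Ptpn2 lie to the right of 0 and Dusp14, Ptprf and Ptprd to the left, while most other bars cross 0.

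Promoter sequences are shown for Ptprf and Dusp14, the genes among the 3 lower ones that have an entry in the RefSeq promoter table (GRCm38.p6). Each runs 5′ to 3′ over the 250 bases before the annotated start. Capitals mark a GC box (GGGCGG) or the E-box CAGGTG that zinc-finger repressors of the Snail and Zeb families can bind, searched on both strands without overlap between them.
Ptprf, chr4:118291398-118291647, minus strand: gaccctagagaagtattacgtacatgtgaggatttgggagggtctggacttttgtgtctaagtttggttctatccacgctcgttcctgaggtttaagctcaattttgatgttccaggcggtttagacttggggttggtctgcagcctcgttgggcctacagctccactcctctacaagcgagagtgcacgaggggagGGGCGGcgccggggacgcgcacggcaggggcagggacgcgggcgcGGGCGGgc
Dusp14, chr11:84068358-84068607, minus strand: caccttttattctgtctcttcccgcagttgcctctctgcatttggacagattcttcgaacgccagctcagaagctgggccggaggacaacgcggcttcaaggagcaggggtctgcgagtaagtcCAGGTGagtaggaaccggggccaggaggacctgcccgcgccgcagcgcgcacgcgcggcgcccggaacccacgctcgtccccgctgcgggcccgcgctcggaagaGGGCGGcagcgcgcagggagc
Ptprf held 2 GC boxes and Dusp14 held 1 GC box and 1 CAGGTG, all on the strand shown. A GC box was present in 32.7% and CAGGTG in 17.2% of 32851 mouse promoters over the same window. Neither sequence held the AP-1 motif TGANTCA (6.75% of promoters) or the cyclic AMP element TGACGTCA (1.55% of promoters). These matches describe the letters of the windows and were not tested as binding sites.

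At the top of the cascades, Map4k4 (also called HGK or NIK), a Sterile-20 kinase that feeds the JNK pathway and regulates cell migration and focal adhesion turnover, was the one cascade kinase that passed. Its log2 ratio was 0.58, 0.85, 0.46, 0.76, 1.24 and 0.71 in invasive replicates 1 to 6, against 0.00, 0.11 and -0.20 in PIN replicates 2, 3 and 4. The invasive values were all above the PIN values, with invasive replicate 5 highest and replicate 3 lowest. It averaged 0.77 ± 0.27 (SD, n = 6) across invasive arrays, against -0.03 ± 0.16 (SD, n = 3) across PIN arrays, a 1.73-fold increase (log2 difference 0.79, SE 0.20, 95% confidence interval 0.35 to 1.24, adjusted p = 0.0851 from limma). The call ended without invasive replicates 2 or 4 or without any PIN array, where the difference was 0.71 to 0.86 and the adjusted p reached 0.261. Medians of several marker lists were also lowest in invasive replicate 3. The macrophage median was 0.84 there and 2.50 to 2.98 in the other invasive replicates, against -0.38 to 0.48 in PIN stroma. Likewise the panleukocyte median was -0.06 beside 1.03 to 1.67 (PIN -0.49 to 0.19), the endothelial median 0.32 beside 1.14 to 1.64 (PIN -0.03 to 0.09) and the fibroblast median 0.325 beside 1.21 to 1.77 (PIN -0.54 to 0.13). By clone, only clone 5 of Map4k4 was lowest in invasive replicate 3. Clones 1, 2 and 4 were lowest in invasive replicate 1, and clone 3 in invasive replicate 6. The part of any of these cell types in the Map4k4 values was not tested.

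Map4k4 was spotted as 5 clones, all of which had a positive difference. Clone 1 read 0.61, 1.00, 0.63, 0.64, 2.06 and 0.75 in invasive replicates 1 to 6, against 0.09, 0.38 and 0.07 in PIN replicates 2 to 4. Clone 5 read 0.84, 1.32, 0.40, 1.24, 2.04 and 0.87 in invasive stroma, against -0.17, -0.19 and -0.01 in PIN stroma. In both clones the groups did not overlap and invasive replicate 5 stood highest. Clone 2 sat lower in both groups, with -0.09, 0.50, 0.13, 0.08, 0.18 and 0.36 in invasive stroma, against -0.52, -0.55 and -0.16 in PIN stroma, again without overlap. Clone 3 read 1.07, 0.68, 0.61, 0.89, 1.20 and 0.31 in invasive stroma, against 0.50, 0.33 and -0.31 in PIN stroma. Clone 4 read 0.49, 0.73, 0.52, 0.95, 0.73 and 1.24 in invasive stroma, against 0.11, 0.59 and -0.57 in PIN stroma. In clones 3 and 4 the groups overlapped, with the highest PIN values above the lowest invasive ones. The differences of clones 1 to 5 were 0.77, 0.61, 0.62, 0.73 and 1.24, of which clone 5 alone passed (SE 0.31, adjusted p = 0.110 over all clones, limma), and those of the other clones had adjusted p-values of 0.256 to 0.372. Among all 107 clones of the set 4 passed, or 3.74%, beside 2.16% of the 17207 clones tested.

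**Figure D2:**
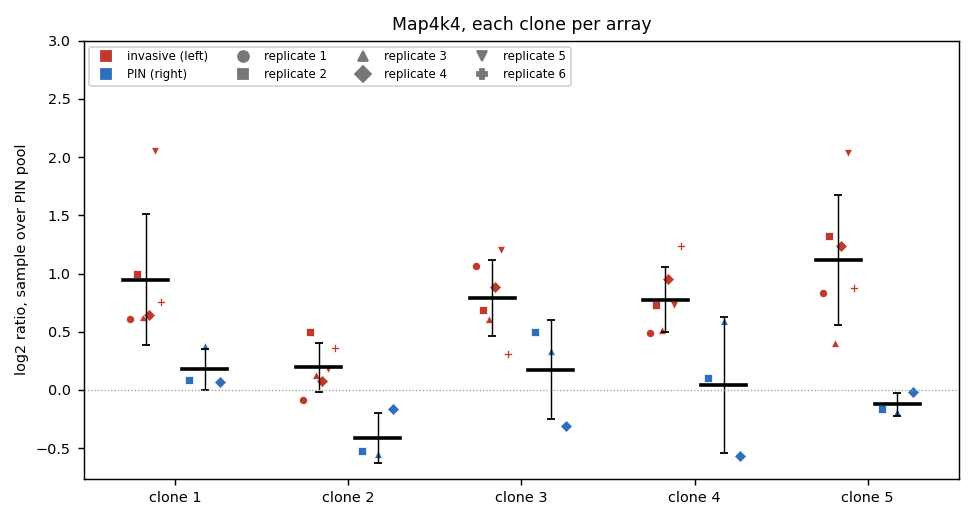
Log2 ratio of sample over PIN pool for each Map4k4 clone, with invasive arrays in red on the left and PIN arrays in blue on the right; marker shapes give the replicate number, lines the mean and bars the SD. Clones 1, 2 and 5 show no overlap between the groups, and clone 5 has the largest difference, 1.24.

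The other MAP4K, Map4k5, did not pass (log2 difference -0.04, 95% confidence interval -0.54 to 0.46), and its 2 clones lay on opposite sides of 0 at -0.29 and 0.21. None of the 7 MAP3K genes passed. Map3k2, which acts mainly through the ERK5 and JNK branches, had the smallest p among them, with a difference of 0.28 (adjusted p = 0.513, limma); its invasive values of 0.16, 0.23, -0.17, -0.18, 0.13 and 0.13 overlapped the PIN values of -0.28, -0.08 and -0.33. Map3k19 was the lowest at -0.29, and Map3k1, an activator of JNK signaling, the highest at 0.42, with a PIN SD of 0.71 (n = 3). Map3k7, the TAK1 kinase downstream of TGF-beta and interleukin-1 receptors, had 0.20 (95% confidence interval -0.22 to 0.62) over 4 clones that ranged from -0.17 to 0.58.

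The 5 MAP2K genes showed the narrowest range of differences, -0.18 to 0.11, and none passed. Map2k1 and Map2k2, which phosphorylate ERK, had 0.09 (95% confidence interval -0.29 to 0.48) and -0.18 (-0.74 to 0.38). Map2k4, an activator of JNK, had -0.11 (-0.54 to 0.32), and Map2k3 and Map2k6, activators of p38, had 0.11 (-0.38 to 0.59) and -0.10 (-0.70 to 0.51). All 5 intervals lay within -0.74 and 0.59.

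Among the 6 MAP kinases none passed, and the largest differences of opposite sign were those of Mapk10 and Mapk13. Mapk10 (JNK3), the JNK isoform best known from neurons, read 0.42, 1.26, 0.45, 1.01, 0.39 and 0.15 in invasive stroma, against -0.29, -0.09 and 0.33 in PIN stroma. All but the last invasive value exceeded the highest PIN value, and the difference was 0.63 (SE 0.26, adjusted p = 0.283, limma), with 0.29 and 0.98 for its 2 clones. Mapk13 (p38 delta), a p38 isoform prominent in epithelia, read -0.99, -1.66, -0.36, -0.88, -1.61 and -1.86 in invasive stroma, against -0.62, -1.11 and 1.05 in PIN stroma. The high value of PIN replicate 4 gave the PIN group an SD of 1.13 (n = 3); the difference was -1.0 (adjusted p = 0.319, limma), and -0.36 (adjusted p = 0.714) without that array. The epithelial marker median was likewise positive on PIN replicate 4 alone, at 0.82, and below 0 on all the other arrays; 1 of the 7 markers, Tspan8, passed as lower. Its part in the Mapk13 values was not tested. The JNK genes Mapk8 and Mapk9 had differences of 0.26 and -0.03, the p38 alpha gene Mapk14 0.14 and the atypical ERK3 gene Mapk6 0.26. The 2 clones of Mapk9 lay on opposite sides of 0, at 0.43 and -0.50, so its average does not show that it was unchanged.

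None of the 9 partners and target kinases passed. Mapkap1 (SIN1), a subunit of the mTORC2 complex, had the lowest difference at -0.54 (adjusted p = 0.371, limma): its values were -0.25, -0.60, 0.52, -0.09, -0.47 and -0.01 in invasive stroma, against 0.67, 0.59 and -0.09 in PIN stroma. The groups overlapped, and without invasive replicate 3 the gene passed. Mapkbp1, a JNK-binding scaffold, was the highest at 0.31 (adjusted p = 0.425). The JNK-interacting scaffolds Mapk8ip1, Mapk8ip2 and Mapk8ip3 had 0.18, 0.03 and -0.18, of which Mapk8ip3 varied most, from -1.51 to 1.09 over the invasive arrays. Mapkapk2 and Mapkapk5, kinases activated by p38, had 0.10 and 0.17.

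Of the 9 Dusp genes 1 passed, and 6 had a negative difference. Dusp14 (MKP6), a small phosphatase that dephosphorylates MAP kinases and the TAK1 complex in T cells, read -0.03, -0.67, -0.59, -0.15, -0.46 and -0.43 in invasive stroma, against 0.53, 0.06 and 0.23 in PIN stroma. All invasive values were below all PIN values, with invasive replicate 1 and PIN replicate 3 close to each other. It averaged -0.39 ± 0.25 (SD, n = 6) across invasive arrays, against 0.28 ± 0.24 (SD, n = 3) across PIN arrays, 1.58-fold lower (log2 difference -0.66, SE 0.20, 95% confidence interval -1.11 to -0.22, adjusted p = 0.141, limma). Dusp14 rested on 1 clone, which did not pass among clones (adjusted p = 0.238), and its call among genes was kept when invasive replicate 1 or 3 was left out and ended without any other array (differences of -0.77 to -0.53).

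Dusp3 (VHR), which acts on ERK and JNK, had a difference of similar size that did not pass. It read -0.35, -0.67, -0.54, -0.52, -0.92 and -1.70 in invasive stroma, against 0.19, 0.24 and -0.63 in PIN stroma. PIN replicate 4 lay among the invasive values, and the difference was -0.71 (SE 0.31, adjusted p = 0.296, limma). Dusp9, an ERK phosphatase, had -0.42 (adjusted p = 0.395), with invasive values of -0.51 to 0.40, against PIN values of 0.33 to 0.52. Dusp16, which acts on JNK and p38, was the highest of the family at 0.25 (adjusted p = 0.734). Dusp7, Dusp10, Dusp13, Dusp19 and Dusp26 had differences of -0.24 to 0.23, with Dusp13 spread from -1.20 to 0.76 in invasive and from -1.32 to 0.50 in PIN stroma.

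Among the 9 non-receptor tyrosine phosphatases 1 passed. Ptpn2 (TC-PTP), which dephosphorylates JAK and STAT proteins and dampens cytokine signaling, read 0.81, 0.36, 0.19, 0.44, 0.16 and 0.17 in invasive stroma, against -0.41, -0.24 and -0.37 in PIN stroma. The groups did not overlap. The PIN arrays lay close together, but all 3 read below a pool made from PIN samples. The difference therefore holds a PIN mean below the pool as well as an invasive mean above it. Ptpn2 averaged 0.36 ± 0.25 (SD, n = 6) across invasive arrays, against -0.34 ± 0.09 (SD, n = 3) across PIN arrays, 1.62-fold higher (log2 difference 0.70, SE 0.19, 95% confidence interval 0.27 to 1.12, adjusted p = 0.112, limma). Its 2 clones had differences of 0.49 and 0.91, neither of which passed among clones (adjusted p = 0.419 and 0.188). The call ended without invasive replicates 2, 4 or 5 or without any PIN array, with differences of 0.66 to 0.75 in those fits.

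Ptpn1 (PTP1B), the closest relative of Ptpn2 and a regulator of insulin and cytokine receptors, read 0.86, 0.99, 0.12, 0.64, 1.92 and 0.67 in invasive stroma, against -0.15, 0.21 and 0.34 in PIN stroma. Only invasive replicate 3 fell within the PIN range, and the difference was 0.73 (SE 0.32, adjusted p = 0.308, limma); without that array it was 0.88 (adjusted p = 0.119). Ptpn21, a FERM-domain phosphatase, was lower on every invasive array, with -0.06, -0.22, -0.22, -0.38, -0.28 and -0.32, against 0.03, 0.12 and -0.04 in PIN stroma. Its difference of -0.28 did not pass (adjusted p = 0.461), and its 3 clones ran from -0.39 to -0.07. The leukocyte phosphatases Ptpn6 (SHP-1) and Ptpn22, each over 1 clone, had 0.27 (95% confidence interval -0.35 to 0.90) and -0.11 (-0.63 to 0.40). All 4 macrophage markers and all 3 panleukocyte markers measured had passed as higher, the macrophage markers with differences of 1.97 to 3.21. The 1 lymphocyte marker measured, Cd4, had -0.16 and did not pass. The part of leukocytes in the Ptpn6 and Ptpn22 values was not tested. Ptpn11 (SHP-2), which promotes Ras signaling below growth factor receptors, had -0.28 (-0.98 to 0.41), with clones at -0.67 and 0.10. Ptpn13, Ptpn14 and Ptpn18 had -0.22, 0.24 and 0.51, the last with an adjusted p of 0.315.

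The receptor tyrosine phosphatases held the lowest p-value and the largest decrease of the whole set. Ptprf (LAR), a cell adhesion phosphatase that associates with cadherin complexes and focal adhesions, read -0.51, -0.99, -0.34, -0.82, -0.75 and -0.85 in invasive stroma, against 0.20, -0.01 and 0.32 in PIN stroma. The groups did not overlap, and invasive replicates 3 and 1 were the least reduced. It averaged -0.71 ± 0.24 (SD, n = 6) across invasive arrays, against 0.17 ± 0.17 (SD, n = 3) across PIN arrays, 1.85-fold lower (log2 difference -0.88, SE 0.20, 95% confidence interval -1.31 to -0.46, adjusted p = 0.0565, limma). Of the 9 arrays, only leaving out PIN replicate 2 ended the call (difference -0.87, adjusted p = 0.229). Each of its 4 clones had a negative difference, -0.64, -0.88, -1.28 and -0.74, and clone 2 passed among clones (adjusted p = 0.106). Clone 2 read -0.31, -0.78, -0.82, -0.41, -0.72 and -0.57 in invasive stroma, against 0.46, -0.03 and 0.40 in PIN stroma, without overlap. Clone 3 varied most, from -2.20 to 0.04 in invasive and from -0.43 to 0.50 in PIN stroma.

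Ptprd, a relative of Ptprf in the LAR subfamily that organizes synapses in neurons, read -0.59, -1.36, -0.49, -1.05, -1.66 and -1.44 in invasive stroma, against 0.14, 0.50 and -0.55 in PIN stroma. PIN replicate 4 lay between invasive replicates 3 and 1, so the groups overlapped. It averaged -1.10 ± 0.47 (SD, n = 6) across invasive arrays, against 0.03 ± 0.53 (SD, n = 3) across PIN arrays, 2.18-fold lower (log2 difference -1.13, SE 0.31, 95% confidence interval -1.79 to -0.46, adjusted p = 0.103, limma). The call held without invasive replicates 1 or 3 or PIN replicate 4 and ended without any other array, with differences of -1.42 to -0.89 over all 9. Its 4 clones differed in size more than those of any other member with several clones, at -1.48, -2.10, -0.38 and -0.55, and clones 1 and 2 passed among clones (adjusted p = 0.0972 and 0.123). Clone 1 read -0.53, -1.26, -0.56, -1.39, -2.10 and -1.20 in invasive stroma, against 0.46, 0.79 and -0.32 in PIN stroma. Clone 2 read -1.21, -2.80, -1.0, -1.81, -2.80 and -2.92 in invasive stroma, against 0.81, 0.56 and -1.34 in PIN stroma, so that PIN replicate 4 fell among the invasive arrays. Which transcripts each clone detects was not examined.

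**Figure D3:**
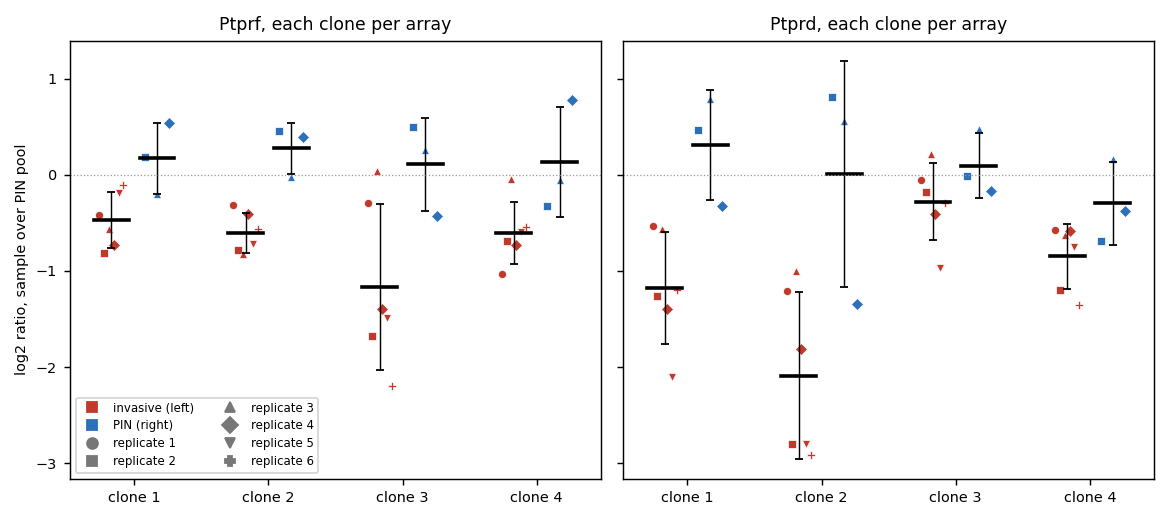
Log2 ratio of sample over PIN pool for the 4 clones of Ptprf and the 4 clones of Ptprd, invasive arrays in red on the left and PIN arrays in blue on the right; marker shapes give the replicate number, lines the mean and bars the SD. All 8 clone means are lower in invasive stroma, and Ptprd clone 2 has the largest difference, -2.10.

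Marker levels across the arrays are given beside Ptprd and Ptprf. Over 4 measured smooth muscle markers, the median log2 ratio was -0.84, -3.87, -0.39, -1.87, -2.23 and -3.96 in invasive replicates 1 to 6, against 0.18, 0.43 and -0.60 in PIN replicates 2, 3 and 4. The arrays with the smallest decrease of Ptprd and Ptprf, invasive replicates 1 and 3, also had the smallest decrease of the smooth muscle markers. PIN replicate 4 was the lowest PIN array for Ptprd and for the smooth muscle markers. For Ptprf it was the highest PIN array, as it was for the epithelial markers, whose median was 0.82 there beside -1.31 and -1.58 in PIN replicates 2 and 3. Among invasive arrays the epithelial median was highest in replicate 3, at -0.54 beside -1.79 to -1.08, where Ptprf was least reduced. The epithelial medians of PIN replicates 2 and 3 lay within the range of the invasive arrays. Ptprf read 0.20 and -0.01 on those PIN arrays, above its values on all invasive arrays. In 2 of the 7 epithelial markers, Cdh1 and Tspan8, the groups did not overlap either, and they overlapped in the rest. Cdh1 read 0.16, 0.15 and 0.25 in PIN stroma, against -0.95 to 0.10 in invasive stroma. Tspan8 read -1.51, -1.58 and 1.20 in PIN stroma, against -2.89 to -1.88 in invasive stroma. Of the 4 smooth muscle markers, Myh11 and Myl9 passed as lower, Smtn had -1.93 (adjusted p = 0.278, limma) and Cnn1 had 0.07. In such bulk samples, fewer cells of a type and less RNA per cell cannot be told apart, and the part of smooth muscle or epithelium in the Ptprd and Ptprf values was not tested.

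**Figure D4:**
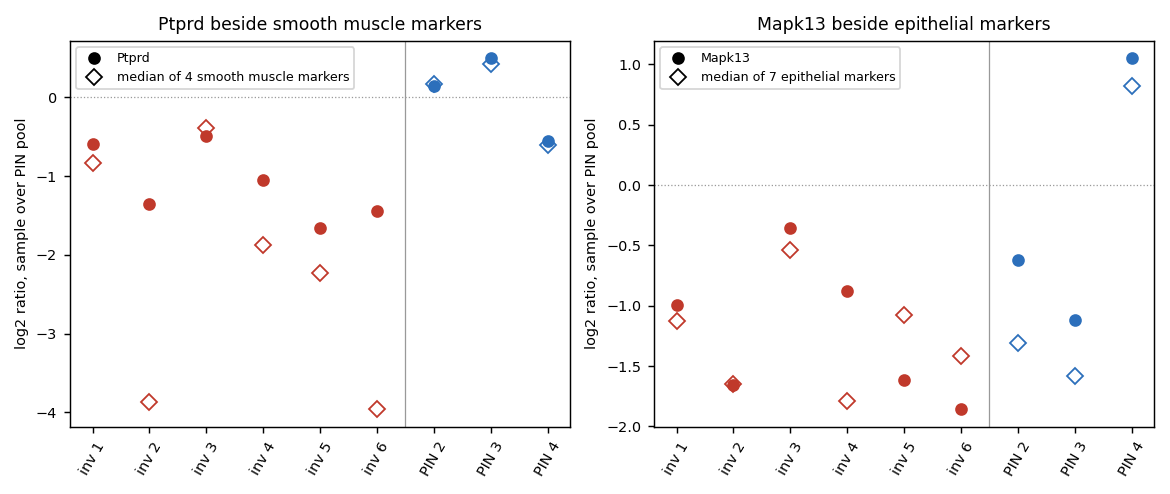
Log2 ratio of sample over PIN pool per array for Ptprd beside the median of 4 smooth muscle markers (left panel) and for Mapk13 beside the median of 7 epithelial markers (right panel); filled circles are the gene, open diamonds the marker median, red is invasive and blue is PIN. Ptprd and the smooth muscle median are both lowest among PIN arrays in replicate 4, and Mapk13 and the epithelial median are both above 0 in PIN replicate 4 alone.

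The third gene of the LAR subfamily, Ptprs, did not pass (log2 difference -0.01, 95% confidence interval -0.51 to 0.50), and its 2 clones had -0.45 and 0.44; whether it differed from Ptprf or Ptprd was not tested. Ptprz1, a receptor for pleiotrophin, was below the pool on 5 of 6 invasive arrays (-0.61, -0.30, -0.34, 0.15, -0.67 and -0.80) and on all PIN arrays (-1.02, -0.67 and -0.88), with a difference of 0.43 (adjusted p = 0.406, limma). The PIN arrays thus read below a pool made from PIN samples, and the sign of the Ptprz1 value depends on whether the PIN arrays or the pool is the reference. Ptprk, a homophilic adhesion phosphatase, had -0.28 (95% confidence interval -0.69 to 0.12) over 4 clones that ran from -0.63 to 0.18. Ptpra, Ptpre, Ptprg, Ptprj and Ptprn2 had differences of -0.01 to 0.08; the interval was widest for Ptpre, at -0.78 to 0.95, and narrowest for Ptpra, at -0.36 to 0.52.

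**Figure D5:**
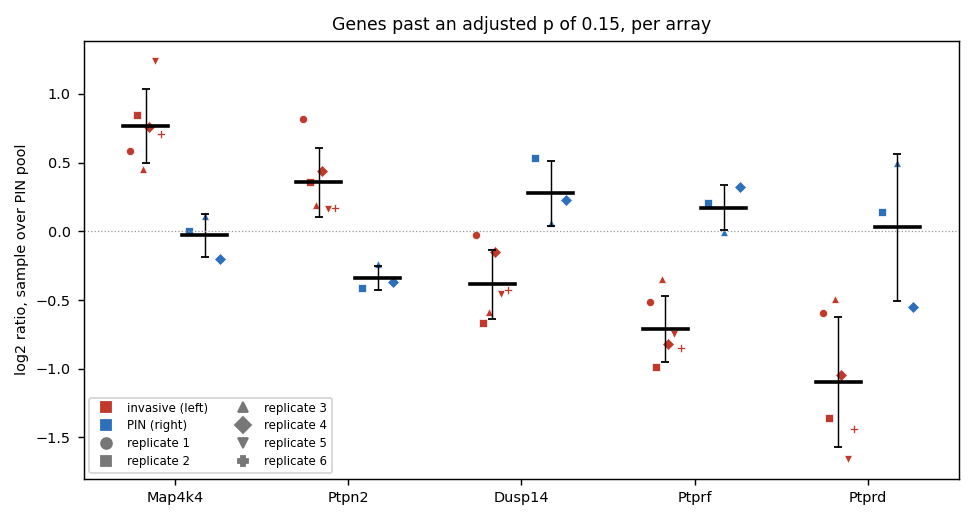
Log2 ratio of sample over PIN pool on every array for the 5 genes that passed, invasive arrays in red on the left and PIN arrays in blue on the right; marker shapes give the replicate number, lines the mean and bars the SD. Invasive and PIN arrays are separate for Map4k4, Ptpn2, Dusp14 and Ptprf, and PIN replicate 4 of Ptprd (-0.55) lies within the invasive range.

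Spread between arrays was similar to that of other genes. The median SD of the 57 genes was 0.331 over the invasive and 0.263 over the PIN arrays, beside 0.344 and 0.279 for all genes. Of the 57 genes, 30 had several clones. In 18 of these all clones lay on one side of 0 and in 12 they did not, with a median range among clones of 0.423. Ptprd was the one gene with a range over 1, and no gene had clones of opposite sign that far apart. The clones of all 4 passing genes with several clones (Map4k4, Ptpn2, Ptprf and Ptprd) had the same sign. These genes passed on the average of those clones, so the shared sign is not separate evidence.

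Genes around the cascades were counted in 6 lists. Of 23 measured targets of MAP kinase signaling, 5 passed, all higher, with a median difference of 0.37 over the list. Over all genes, 3.75% passed as higher and 5.64% in either direction, with a median difference of 0.02. The list mixes transcription factor genes with genes of kinases and other proteins, and its mRNA counts do not measure pathway output. The immediate early transcription factor gene Egr1 read 2.15, 1.27, 0.22, 1.78, 0.80 and 1.39 in invasive stroma, against -1.92, -0.52 and -0.64 in PIN stroma, an increase of 4.91-fold (log2 difference 2.30, SE 0.41, adjusted p = 0.0303, limma). Its PIN arrays averaged -1.03, below a pool made from PIN samples, and its invasive arrays averaged 1.27 against that pool. Junb, a subunit of the AP-1 factor, was 3.61-fold higher (1.85, SE 0.37, adjusted p = 0.0431), and the microtubule regulator gene Stmn1 5.93-fold higher (2.57, SE 0.63, adjusted p = 0.0708). The ETS factor gene Etv5 was 1.93-fold higher (0.95, adjusted p = 0.0933), and Ets2 was 1.62-fold higher (0.70, adjusted p = 0.103). In Egr1, Junb, Stmn1, Etv5 and Ets2 the groups did not overlap, the invasive values being the higher. Stmn1 read 1.91, 2.37, 5.12, 3.20, 1.81 and 1.84 in invasive replicates 1 to 6, against -0.43, 0.22 and 0.63 in PIN stroma, highest in invasive replicates 3 and 4. The median of 11 proliferation markers was 0.30, 1.09, 2.02, 1.30, 0.93 and 0.99 on the same invasive arrays, against -0.14, 0.05 and 0.27 in PIN stroma. The median of 4 neuroendocrine tumor markers was 0.91, 1.63, 2.11, 2.16, 1.42 and 0.43, against 0.20, -0.13 and 0.12, and both medians were likewise highest in invasive replicates 3 and 4. Egr1 and Ets2 were instead lowest in invasive replicate 3, as were the macrophage, panleukocyte, endothelial and fibroblast medians given above. Junb and Etv5 were not. Junb was lowest in invasive replicate 2, at 0.67 beside 0.90 in replicate 3. Etv5 was lowest in invasive replicate 6, at 0.32 beside 0.74 in replicate 3. The part of any of these cell types in the values of the MAP kinase targets was not tested.

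Of 23 genes of Ras, Raf and adaptor proteins 2 passed. This count and those of the lists that follow stand beside a share of 5.64% over all genes. Rap1b, a small GTPase of the Ras family, rose 2.36-fold (log2 difference 1.24, SE 0.32, adjusted p = 0.0933, limma), and Gab1, a docking protein that binds Ptpn11, was 1.51-fold lower (-0.60, SE 0.19, adjusted p = 0.148). None of 24 Sterile-20 kinases and cascade partners under other symbols passed, with differences of -0.53 to 0.56. Of 51 subunits of serine and threonine phosphatases, which reverse MAP kinase phosphorylation more broadly, Ppp4r1 alone passed (0.73, adjusted p = 0.148), and none of 26 other tyrosine and dual-specificity phosphatases did. Of 26 tyrosine kinases 2 passed as higher, the Src-family kinase Fyn (1.17, SE 0.22, adjusted p = 0.0371) and the PDGF receptor Pdgfrb (1.14, SE 0.26, adjusted p = 0.0602), which is also counted among the fibroblast markers, of which 4 of 9 passed as higher.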

How the data were processed

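The authors hybridized twice-amplified RNA from microdissected stroma to spotted cDNA arrays, read the spots with ScanAlyze and applied print-tip group lowess with SMA, subtracting no background. What they deposited is, per clone and array, the log2 ratio of Cy5 (sample) to Cy3 (PIN pool). The genome build is not given in the sources used here. Brightness of the spots was not analysed here and dim clones were kept; the number of arrays limits the precision.

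Of 17664 rows, 12563 carried 1 symbol in the platform annotation, 412 several and 4689 none, and 457 held no value. All 57 symbols matched RefSeq by gene ID. Clones with at least 4 invasive and 2 PIN values were averaged by symbol, and 8106 genes entered a two-sided fit of invasive minus PIN (limma 3.58.1, R 4.3.3, functions lmFit and eBayes, Benjamini-Hochberg over all genes; clones over all 17207 clones). The fit was checked on simulated data. Each array is 1 mouse. Genes named are those that passed, the Map4k4 clones, the 2 smallest p-values and both extremes of each role group, genes without overlap between groups, and passing genes of related lists; the others were added to complete the groups. The members and lists were chosen with earlier results of these data known. Rows with several symbols, including 2 with a member's symbol, entered an alternative only. Alternatives were other tests, weights, normalizations, filters, clone summaries, thresholds, leaving out each array and a replicate block. Figures were drawn with matplotlib 3.10.9 (Python 3.11.15, pandas 2.3.3, numpy 2.4.6).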

Additional observations from a re-analysis of the deposited data

Results flagged for a closer look

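Map4k4 clone 1 had one invasive array far from the others: invasive replicate 5 read 2.06, against 0.61 to 1.00 on the other 5 invasive arrays (gap of 0.73 of the whole range, past Dixon's critical value for 6 samples). The 3 PIN arrays of the same clone read 0.09, 0.38 and 0.07. It was the only one of 26 sets of invasive values examined (21 named genes and the 5 Map4k4 clones), where chance flags about 1 in 20. Invasive replicate 5 was also the highest invasive array for clones 3 and 5 of Map4k4, at 1.20 and 2.04. Groups of 3 PIN arrays are too small for this test.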

How the results depend on the processing

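All 5 passing genes passed again with robust empirical Bayes, with arrays centred, scaled or quantile normalized, with clones on all 9 arrays, with at least 2 values in each group, with the median of clones and with rows of several symbols added. The methods' t-test passed 1 of the 57 genes (Ptprf) and Welch's version 3 (Map4k4, Ptpn2 and Ptprf), while array weights passed 10 and the invasive arrays against 0 passed 14; among all genes these settings passed 54, 207, 1626 and 2595, against 457. A threshold of 0.05 passed 0, and clones tested alone gave 3 genes with a passing clone (Map4k4, Ptprf and Ptprd). Leaving out one array at a time, 0 to 7 genes passed: 5, 1, 7, 1, 2 and 3 when the array dropped was invasive replicate 1, 2, 3, 4, 5 or 6, and 0, 1 and 2 when it was PIN replicate 2, 3 or 4. The median difference of the 57 genes, 0.03, was -0.050 after quantile normalization and -0.01 to 0.07 when one array was left out. Ptprz1 turned to -0.43 (adjusted p = 0.0566) with the invasive arrays against 0, from which the PIN arrays are absent. With the replicate block over the numbers that both groups share, 0 of the 57 genes passed, and 0 did so on the same 6 arrays without the block, a fit added after seeing the data; 90 and 137 of all genes passed. Same-numbered samples are different mice, so the numbers pair no mice. Their deviations correlated at -0.09, -0.10 and -0.02, within the -0.157 to 0.144 of samples with different numbers. Whether same-numbered samples shared a batch cannot be told from these correlations. The cause of the changes between settings was not tested.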
